A study of Homo sapiens with 4 samples.

Results

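ID1, ID2, ID3 and ID4 are the human inhibitors of DNA binding, and their ac4C peaks were followed in FaDu cells with and without knockdown of NAT10. The members were chosen by the Ensembl identifiers ENSG00000125968 (ID1), ENSG00000115738 (ID2), ENSG00000117318 (ID3) and ENSG00000172201 (ID4). Every row with one of these identifiers was taken, which gave 5 of the 6403 peaks of the shNC list, 4 of the 6417 peaks of the shNAT10 list and 3 of the 2807 rows of the authors' table of differential peaks. ID1 was chosen because its shNC peak stood near the top of that list, so its rank there is a description and no test was made on it.

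FaDu is an established human line derived from a squamous carcinoma of the hypopharynx. The shNC cells carried a control shRNA and the shNAT10 cells an shRNA against NAT10, the acetyltransferase that makes N4-acetylcytidine (ac4C) on RNA. The study's methods describe stable lentiviral knockdown lines selected with puromycin, and the labels do not say which NAT10 shRNA these cells carried. In acRIP-seq, RNA was broken into fragments, fragments bound by an ac4C antibody were pulled down (IP), and their reads were set against those of the RNA without pull-down (input). There was 1 IP and 1 input library per condition and no replicate, so no value here has an error and no difference between shNC and shNAT10 was tested.

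ID proteins have a helix-loop-helix (HLH) domain and no basic region, so they pair with basic HLH factors, above all the E proteins, and keep them from binding DNA. By this they hold back differentiation and favour proliferation. ID genes are well-known targets of bone morphogenetic protein (BMP) signalling through SMAD proteins, and ID1 also responds early to growth factors and serum. In squamous epithelium ID1 is known for its expression in proliferating cells and in carcinomas.

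A peak here is a stretch of exonic sequence in which the authors found more IP than input reads. Its fold enrichment is the linear ratio of IP over input that the authors' peak caller gave, and its false discovery rate (FDR) is the caller's own. The scaling between the lists is not given in the sources used here. Fold enrichments were therefore ranked within each list, with rank 1 for the highest and the mean rank for ties, and the values of the 2 lists were only set side by side. The lists hold no reads, so depth is unknown and RNA levels are not measured, and where a peak is missing, less RNA of the gene and less ac4C on it cannot be told apart. The FDR was above 0.05 for 520 shNC peaks (8.12%) and 534 shNAT10 peaks (8.32%). Of the fixed markers, 5 of 9 epithelial genes had a peak in each list. With an FDR of at most 0.05 there were 4 in shNC and 5 in shNAT10. Of 6 mesenchymal genes, 1 (COL1A1) had a peak in shNC and 0 had one in shNAT10, and 0 of 4 leukocyte genes had one in either. Among all protein-coding genes, 21.4% had a peak in shNC and 21.7% in shNAT10. KRT5, KRT14, KRT17 and EPCAM had no peak, which says nothing of their level. NAT10 itself had a peak of 6.91-fold in shNC and 12.0-fold in shNAT10. These values do not measure the level of NAT10, and the knockdown could not be checked from the lists. By qRT-PCR and western blot, the paper reported reduced NAT10 in the knockdown FaDu cells of its mouse experiment.

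All 4 ID genes had a listed peak in shNC and 3 of 4 had one in shNAT10. At an FDR of at most 0.05, 3 of 4 had one in each list, since the shNC peak of ID2 had an FDR of 0.189. The gene without a shNAT10 peak was ID4. Among all 20056 protein-coding genes of RefSeq, expressed in FaDu or not, 21.4% had a peak in shNC and 21.7% in shNAT10. At an FDR of at most 0.05 these shares were 20.0% and 20.3%. ID1 was the most enriched member in each list, at 263-fold in shNC and 106-fold in shNAT10. ID3 came next, with 26.6-fold in shNC and 39.7-fold in shNAT10 for its strongest peak. In shNC, ID4 (18.0-fold) and ID2 (6.91-fold) followed, and in shNAT10 ID2 followed with 19.4-fold. Without replicates it is unknown which neighbours in this order differ beyond the spread between cultures.

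**Figure D1:**
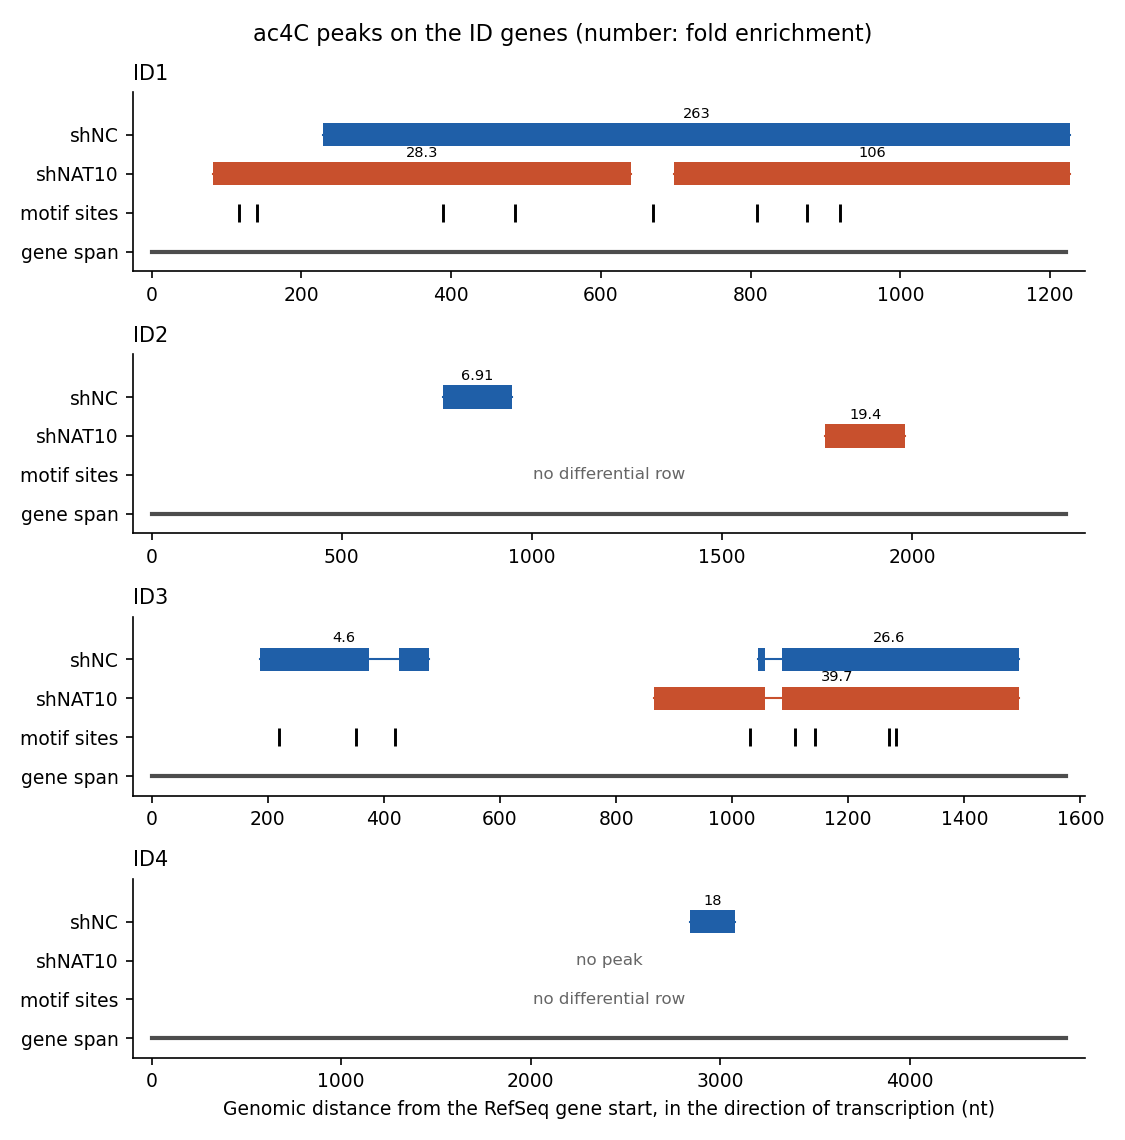
Peaks on the 4 ID genes, with the genomic distance from the RefSeq gene start on the x axis in nucleotides. Blue bars are shNC peaks and orange bars shNAT10 peaks, each with its fold enrichment, thin lines join exonic blocks, black ticks are motif sites listed for the differential rows, and the grey line is the gene span. The shNC peak of ID1 (263-fold) lies over a pair of shNAT10 peaks (28.3-fold and 106-fold), and the ID2 peaks of the 2 lists lie apart.

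ID1 is a short gene on the plus strand of chromosome 20, from 31605289 to 31606510 in GRCh38.p14 (RefSeq), a span of 1222 nt. Its only shNC peak ran from 31605518 to 31606515 in 1 exonic block of 998 nt. The fold enrichment of 263 had rank 3 of 6403. The p-value was listed as 0, as for 43 shNC peaks in all, which share places in the order of p-values. The length had rank 14 of 6403, against a median of 210 nt. The peak began 229 nt after the RefSeq start, ended 5 nt past the RefSeq end and covered 81.3% of the gene span. This was the third-largest covered share among 4372 genes that could be measured this way in shNC, where the median was 1.31%. The gene span includes introns while peaks are exonic, so here and below the share is small for genes with long introns. It is not a share of the transcript.

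In shNAT10, ID1 had a pair of peaks. The first ran from 31605371 to 31605928 (558 nt) with a fold enrichment of 28.3, rank 1235 of 6417 and a log10 p-value of -128. The second ran from 31605987 to 31606515 (529 nt) with a fold enrichment of 106, rank 86 and a log10 p-value of -876. The stronger peak thus lay over the 3′ part of the gene and the weaker one over the 5′ part. Together they covered 88.5% of the gene span, the second-largest share among 4427 genes in shNAT10, where the median was 1.24%.

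The shNC peak and the pair of shNAT10 peaks overlapped by 940 nt, or 94.2% of the shNC peak. A stretch of 147 nt at the 5′ side, from 31605371 to 31605517, lay under a shNAT10 peak only. A stretch of 58 nt between the shNAT10 peaks, from 31605929 to 31605986, lay under the shNC peak only. A single shNC peak over at least 2 shNAT10 peaks of the same gene was found 133 times (2.08% of the shNC peaks). Of the 14 shNC peaks at least as long as that of ID1, 8 overlapped at least 2 shNAT10 peaks, so the pattern was frequent among long peaks.

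**Figure D2:**
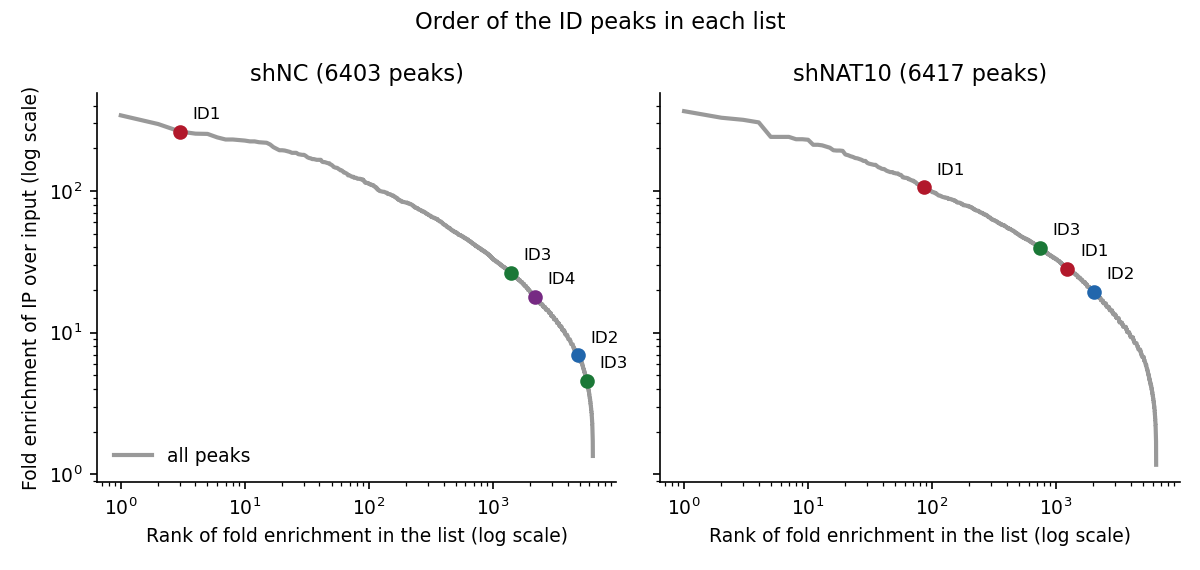
Fold enrichment of every peak (grey line, log scale) against its rank in the list (log scale), in shNC on the left and shNAT10 on the right, with the ID peaks as coloured points. ID1 has rank 3 in shNC and ranks 86 and 1235 in shNAT10, and the other ID peaks have ranks from 745.5 to 5699.5.

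ID3 lies on chromosome 1, minus strand, from 23557926 to 23559501 (1576 nt). Its peak at the 3′ side was listed in each condition and began at the same genomic base, 82 nt inside the RefSeq end of the gene. In shNC it ran from 23558008 to 23558456, with 420 nt in 2 exonic blocks, a fold enrichment of 26.6 (rank 1404.5) and a log10 p-value of -178. In shNAT10 it reached further toward the 5′ end, to 23558635, with 599 nt in 2 exonic blocks, a fold enrichment of 39.7 (rank 745.5) and a log10 p-value of -183. All 420 nt of the shNC peak lay inside the shNAT10 peak. Its length rank was 656.5 in shNC and 150 in shNAT10.

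A second ID3 peak was listed in shNC alone, at the 5′ side of the gene. It ran from 23559025 to 23559315 and held 240 nt in 2 exonic blocks. Its fold enrichment of 4.60 had rank 5699.5 of 6403, and its log10 p-value was -10.2. By p-value it stood at rank 3185.5, near the middle of the list. ID3 was thus covered at its 5′ and 3′ sides in shNC and at its 3′ side in shNAT10, with 41.9% and 38.0% of the gene span under peaks.

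ID2 lies on the plus strand of chromosome 2, from 8682056 to 8684461 (2406 nt), and had 1 peak in each list, at different places. The shNC peak ran from 8682823 to 8683002 (180 nt), with a fold enrichment of 6.91 at rank 4859 of 6403. Its FDR of 0.189 was above 0.05, and 83 other shNC peaks had exactly the same fold enrichment and p-value. The shNAT10 peak ran from 8683828 to 8684036 (209 nt), with a fold enrichment of 19.4 at rank 2016.5 and an FDR of 8.13e-05, and 44 other shNAT10 peaks shared both values. It ended 425 nt before the RefSeq end, against 1459 nt for the shNC peak, and the peaks did not overlap.

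ID4, on the plus strand of chromosome 6 from 19837370 to 19842197 (4828 nt), had a peak in shNC only. It ran from 19840209 to 19840447 (239 nt), with a fold enrichment of 18.0 at rank 2186.5 and an FDR of 0.000151. Exactly these values of fold enrichment and p-value were shared by 34 other shNC peaks. No such ties were found for the ID1 peaks or the 3′ peaks of ID3. The 5′ peak of ID3 shared its values with 1 other peak.

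By position, 2 of the 5 shNC peaks of ID genes overlapped a shNAT10 peak and 3 of the 4 shNAT10 peaks overlapped a shNC peak, where an overlap needs at least 1 bp in common between exonic blocks of one strand. Over all peaks, 51.7% of the shNC and 51.5% of the shNAT10 list overlapped the other list. The overlapping peaks were those of ID1 and the 3′ peak of ID3. They had log10 p-values of -128 or lower, and the ID peaks found in 1 list only had log10 p-values from -10.2 to -1.58.

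The differential table held 1 row of ID1 and 2 rows of ID3 and no row of ID2 or ID4. Over all protein-coding genes, 11.0% had a row. The table keeps only differences that passed the authors' own limit, its columns on the difference were not used, and no direction is given here. The ID1 row ran from 31605371 to 31606515 (1145 nt), which joins the shNC peak with the pair of shNAT10 peaks, and its class was 3′-UTR. Each row has 1 class, and the ID1 row reached from 82 nt after the RefSeq start to past the RefSeq end. Its class therefore does not place all of the row or its motif sites in the 3′-UTR. The ID3 rows were a 3′-UTR row from 23558008 to 23558635 (599 nt) and a coding sequence (CDS) row from 23558995 to 23559315 (270 nt). The 3′-UTR class was given to 56.1% of all rows and the CDS class to 19.4%. Each row has a fold enrichment of the authors' merged peak. This was 85.2 for ID1 (rank 41 of 2807), 25.0 for the 3′ row of ID3 (rank 468.5) and 3.25 for its CDS row (rank 2508.5). The CDS row of ID3 reached beyond the only listed peak there, that of shNC from 23559025 to 23559315 (240 nt, 4.6-fold). By length, the ID1 row had rank 8 of 2807.

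The differential table lists sites of the motif CXXCXXCXXCXX, in which each C is followed by a pair of bases of any kind (X). Sequences of the peaks were not used here, so the sites are known by position only. Promoter sequences of RefSeq covered 8 listed sites of other genes on the strand of the gene, and 7 of them held the motif at the listed place (5 of 6 on the plus and 2 of 2 on the minus strand).

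The ID1 row held 8 sites, which gave rank 46.5 of 2807 by number. All 8 lay in its exonic block, at 0.699 sites per 100 nt. Over all rows, 92.3% of the listed sites lay in the exonic blocks of their row, at 0.490 per 100 nt, and 39.1% of rows had no site. The 30 longest rows held from 0 to 21 sites with a median of 8, and the median of the 50 longest was 5. Of the 8 sites, 5 lay under peaks of both lists. A pair of sites at 31605405 and 31605429 lay in the 5′ stretch under a shNAT10 peak only. One site, at 31605958, lay in the gap between the shNAT10 peaks, under the shNC peak only.

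The 3′-UTR row of ID3 held 5 sites in its exonic blocks (0.835 per 100 nt), of which 4 lay under peaks of both lists. The remaining site, at 23558471, lay in the part that the shNAT10 peak added. The CDS row of ID3 listed 3 sites. Of these, 2 lay in its exonic blocks (0.741 per 100 nt), under the 5′ peak of shNC, and the other one, at 23559082, lay between the exonic blocks.

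ID1 stood among the highest peaks of shNC between DEFB1 (342-fold), an epithelial defensin, and RPP25 (297-fold), a subunit of RNase P and RNase MRP, above it, and PLEC (254-fold), a cytoskeletal linker, POMGNT1 (253-fold), a glycosyltransferase, and PABPC1 (239-fold), a poly(A)-binding protein, below it. In shNAT10, the peaks just above ID1 were those of GAS5 (109-fold), a long noncoding RNA, EMC9 (108-fold) and PTMA (108-fold). Those just below were QPRT (105-fold), an enzyme of NAD synthesis, PHKG1 (105-fold), a phosphorylase kinase subunit, and PODXL2 (104-fold). The neighbours of ID1 thus differed between the lists.

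Of the 30 highest shNC peaks, 27 overlapped a shNAT10 peak. Their strongest overlapping shNAT10 peak had a fold enrichment from 3.55 to 318 with a median of 53.0, and a rank from 3 to 6045.5 with a median of 440. ID1, with 106-fold and rank 86, took place 6 among these 27. A lower rank in the other list was common to this group, since 3 of the 27, the peaks of RPP25, DEFB1 and TMEM160, were among the 30 highest in shNAT10. ID1 and PBK, a mitotic kinase gene, were the 2 of the 30 with more than 1 overlapping shNAT10 peak. Among the 20 highest only ID1 had more than 1, and among the 50 highest 4 had. The number 30 was set, and TMEM160 and PBK were named, after values had been seen. All 30 were picked for high values in shNC, which limits what their lower values in shNAT10 can show.

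The genes most like ID1 were sought among the 3241 genes with a peak in each list, by the distance between the log2 fold enrichments of each gene's strongest peak. The nearest were PLEC (254-fold in shNC and 82.2-fold in shNAT10, distance 0.37), KIFC2, a kinesin (182-fold and 110-fold, distance 0.53), and NDUFB9, a subunit of respiratory complex I (180-fold and 91.0-fold, distance 0.59). Each point is 1 value per list, and likeness here is of these values only.

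**Figure D3:**
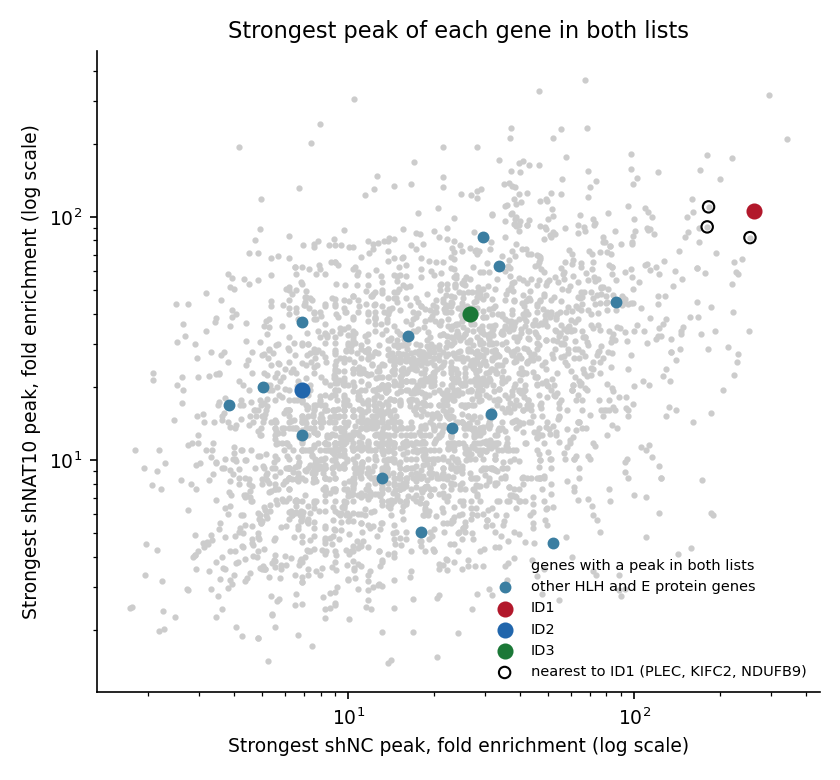
Strongest peak of each of the 3241 genes with a peak in both lists, with the fold enrichment in shNC on the x axis and in shNAT10 on the y axis (log scales). Red, blue and green points are ID1, ID2 and ID3, teal points other HLH genes, and open circles the 3 genes nearest to ID1. ID1, which was chosen for its high shNC peak, lies at 263 and 106, outside the range of the other HLH genes. The scaling between the axes is unknown.

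The partners of ID proteins were looked at next. Of the 3 E proteins, TCF3 alone had a peak, with 52.1-fold in shNC (rank 480.5) and 4.56-fold in shNAT10 (rank 5708). TCF4 and TCF12 had none in either list. Of 58 other HLH factors, 19 had a peak in shNC (32.8%), 15 in shNAT10 (25.9%) and 12 in both. The shares of all protein-coding genes were 21.4% and 21.7%. With names by genes of known strand only, 14 HLH factors (24.1%) and 12 (20.7%) had one, against 19.3% and 19.4%. Of all genes with a shNC peak, 65.1% also had one in shNAT10. Of the 61 E proteins and other HLH factors, 20 had a peak in shNC and 16 in shNAT10. Over those with a peak, the strongest peak per gene ran from 3.72-fold to 86.3-fold in shNC with a median of 14.5. In shNAT10 it ran from 4.56-fold to 82.8-fold with a median of 16.5. ID1, which was chosen for its high shNC peak, lay above this range in each list, and ID3 (26.6-fold and 39.7-fold) lay within it.

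Among the HLH factors with the strongest peaks, the E-box binding factor USF1 had 86.3-fold in shNC and 44.8-fold in shNAT10. MLXIP, a glucose-responsive factor, had 29.7-fold and 82.8-fold, and ASCL2, of the achaete-scute family, had 33.8-fold and 62.8-fold. SREBF1, a regulator of lipid synthesis, had 6.91-fold and 36.8-fold. MXD3, of the MAX network, had 16.2-fold and 32.5-fold. AHR, the aryl hydrocarbon receptor, had 35.9-fold in shNC and no peak in shNAT10. The order of shNC and shNAT10 thus went either way in this group.

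A list of 35 genes of BMP and TGF-beta signalling was looked at by role. Within it, 9 had a peak in shNC (25.7%), 6 in shNAT10 (17.1%) and 3 in both. The shares of all protein-coding genes were 21.4% and 21.7%, and 65.1% of all genes with a shNC peak also had one in shNAT10. Of the ligands, BMP7 had 60.0-fold in shNAT10 and no peak in shNC. The strongest peak of the list was that of GDF15, with 121-fold in shNC and 47.5-fold in shNAT10. GDF15 is a distant member of the TGF-beta family whose known receptor is GFRAL with RET, and it is not an established ligand of the SMAD signal to ID genes. Of the receptors, TGFBR2 had 48.3-fold in shNC and 6.76-fold in shNAT10, where its FDR was 1.0. The BMP receptor BMPR1A had 14.4-fold in shNAT10 only (FDR 0.00224). TGFBR3 (7.6-fold, FDR 0.126) and ACVR2A (6.91-fold, FDR 0.189) had a peak in shNC only. Of the SMADs that carry the signal, SMAD1, SMAD5 and SMAD9 of the BMP branch had no peak in either list. SMAD4, the common partner of both branches, had 6.22-fold in shNC at an FDR of 1.0. SMAD2 and SMAD3 of the TGF-beta branch had 8.98-fold (FDR 0.0550) and 4.49-fold (FDR 0.00389) in shNC, and none of these 3 had a peak in shNAT10. The inhibitory SMAD6, itself a BMP target, had 29.4-fold in shNC only, and the inhibitory SMAD7 had no peak in either list. The pseudoreceptor BAMBI had 27.6-fold in shNC and 8.45-fold in shNAT10, where its FDR was 0.0851. The activin and BMP antagonist FST had 55.8-fold in shNAT10 only. With peaks of an FDR of at most 0.05 only, the counts were 5 in shNC (14.3%) and 4 in shNAT10 (11.4%), against 20.0% and 20.3% of all protein-coding genes.

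ID1 belongs to the genes that respond early to growth factors. Of 31 other such genes 10 had a peak in shNC (32.3%), 12 in shNAT10 (38.7%) and 8 in both. The shares of all protein-coding genes were 21.4% and 21.7%, and 65.1% of all genes with a shNC peak also had one in shNAT10. JUND, a subunit of AP-1, had 85.9-fold in shNC and 31.3-fold in shNAT10, and the nuclear protein gene IER2 had 85.5-fold and 16.1-fold. Of the genes for proteins that bind AU-rich RNA, ZFP36L1 had 46.4-fold and 65.3-fold, and ZFP36L2 had 10.6-fold and 30.4-fold. DUSP5, a phosphatase of ERK, had 54.9-fold in shNAT10 only, and FOSL2, an AP-1 subunit, had 29.7-fold in shNC only. No gene of this group reached the fold enrichment of ID1 in either list. ID1 was chosen for its high shNC peak, so this is a description only.

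**Figure D4:**
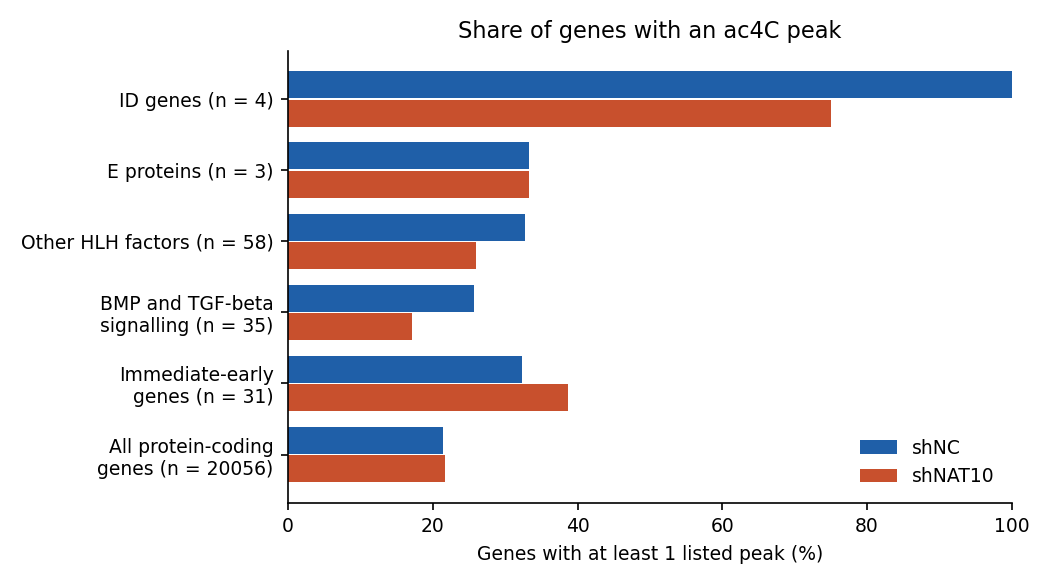
Share of genes with at least 1 listed peak in shNC (blue) and shNAT10 (orange), in percent, for the ID genes, 4 groups of related genes and all protein-coding genes, with the number of genes in brackets. The ID genes reach 4 of 4 in shNC and 3 of 4 in shNAT10, the related groups lie between 17.1% and 38.7%, and all protein-coding genes lie at 21.4% and 21.7%. At an FDR of at most 0.05 (not drawn), 3 of 4 ID genes had a peak in each list.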

How the data were processed

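The acRIP-seq libraries of shNC and shNAT10 FaDu cells were processed by a company for the authors. The submitters' notes name cutadapt 2.5, HISAT2 2.1.0, HOMER 4.10.4, featureCounts 1.6.3 and GRCh38. The peak caller and its limits are not given in the sources used here. The authors' deposited peak lists give fold enrichment as a linear ratio, and log10 p-values and FDRs, used here as a score. The lists were matched to conditions by a prefix (WTG, KOG) that they share with library titles. Columns on the difference in the table of differential peaks hold a log2 fold change, p-value and FDR, and were not used.

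Starts were counted from 1. Overlap needed at least 1 bp of exonic blocks on the same strand. On 6403 simulated peaks all 3179 planted overlaps were found and 0 wrongly called, which checks the code only. Symbols came from the authors' table for 2483 of 6723 identifiers. For 3920 they came from the RefSeq gene (GRCh38.p14) that held over 50% of the peak, on the same strand where the strand was known. This rule gave the table's symbol for 94.9% of 2312 identifiers named both ways, and 320 stayed unnamed. Named genes were the ID genes, the 3 peaks above and below ID1, the 3 nearest genes, up to 6 members per list by fold enrichment, and NAT10. The remaining E proteins, SMADs and receptors with a peak were named after their values were seen. The rule for naming by position was likewise widened, to genes of unknown strand, after list counts had been seen. The members and lists were chosen with earlier results of these data known. Alternatives were other sets of ranked peaks, stricter FDR or fold limits, and other overlap rules. Added after seeing the data were names by genes of known strand only and other numbers of highest peaks and longest rows. Scripts ran in Python 3.11.15 with pandas 2.3.3, numpy 2.4.6, matplotlib 3.10.9 and scipy 1.17.1.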

Additional observations from a re-analysis of the deposited data

How the results depend on the processing

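Ranks are given here as percent from the top of the list, and a value counted as moved when it left its 95% Wilson interval or changed a count by over 1.5 times. The interval served as a fixed limit only and measures no error of a rank, since peaks are not replicates. Of 72 alternatives for the ID peaks, the counts of ID genes and the lists of related genes, 30 moved the value and 42 did not. The shNC peak of ID1 stood at 0.0469% by fold enrichment and at 0.344% by p-value. The stronger shNAT10 peak of ID1 went from 1.34% to 2.81% by p-value and to 1.72% with only the strongest peak of each gene. The weaker one, from 31605371, went from 19.2% to 10.3% by p-value and to 21.0% among peaks with an FDR of at most 0.05. By p-value, the 3′ peak of ID3 went from 21.9% to 9.18% in shNC and from 11.6% to 7.99% in shNAT10, and the 5′ peak from 89.0% to 49.8%. The ID2 peak went from 75.9% to 97.7% in shNC and from 31.4% to 66.3% in shNAT10, and the ID4 peak from 34.1% to 69.4%. With only the strongest peak of each gene, ID2 stood at 82.4% in shNC and 37.3% in shNAT10, ID3 at 26.7% and 14.3%, and ID4 at 40.5%. Among peaks with an FDR of at most 0.05, the 3′ peak of ID3 stood at 23.9% in shNC and 12.7% in shNAT10, ID4 at 37.2% and the shNAT10 peak of ID2 at 34.3%. These peaks kept their ranks (1404.5, 745.5, 2186.5 and 2016.5), and the percents moved with the shorter list. Among peaks in a single exonic block, ID4 stood at 33.0%.

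At an FDR of at most 0.05, 3 of 4 ID genes had a peak in each list. At an FDR of at most 1e-10, 2 of 4 ID genes, ID1 and ID3, had a peak in each list. At that limit 7 HLH factors had a peak in shNC and 8 in shNAT10, and 3 genes of BMP and TGF-beta signalling had one in each list. There were 7 early response genes with a peak in each list, and 1 E protein in shNC and 0 in shNAT10. The share of all protein-coding genes at that limit was not taken, so these counts cannot be set against it. At an FDR of at most 0.05, 5 genes of BMP and TGF-beta signalling had a shNC peak. By gene in place of position, 4 of 5 shNC peaks of ID genes had a peak of the same gene in the other list. Both shNC peaks of ID3 count here. Counted as genes, this was 3 of 4, against 65.1% of all genes with a shNC peak. With names by genes of known strand only, 14 HLH factors (24.1%) had a peak in shNC and 12 (20.7%) in shNAT10, against 19.3% and 19.4% of all protein-coding genes. Of 24 alternatives on the number of highest peaks and longest rows, 6 moved the value, and the place of ID1 lay between 3 for the 10 and 7 for the 50 highest peaks. The causes were not tested. No replicate could be left out, and no paired analysis was possible because neither condition has a second IP or input library. The depth of the libraries is unknown, which limits every statement on a missing peak.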
